A study of Mus musculus with 18 samples.

Results

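The 8 libraries described here, of 18 in all, came from mice whose skin held messenger RNA of the growing hair follicle. They were chosen by a measured value, Krt71 above 10 CPM (counts scaled to the same total in each library), and are called high-Krt71 libraries. The other 10 are called low-Krt71 libraries. Each library is 1 mouse, and the p-values given take the mouse as the unit.

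The series measured RNA from dorsal skin of mice given tamoxifen at 8 weeks of age, with harvest 10 weeks later. In the mutants tamoxifen served to switch on Cre recombinase. KR mice (n = 4) carried K14-CreERT and a deletion of Rbpj, and LR mice (n = 3) carried Lrig1-CreERT2 and the same deletion. KN1 mice (n = 4) carried a deletion of Notch1 made with a driver that the labels write K14-CreERT1. Controls matched by batch or litter numbered 2 for KR, 3 for LR and 2 for KN1. The labels give the tamoxifen protocol for every sample and no genotype for the controls beyond the mutant they match. K14-CreERT is active in the basal layer and the outer root sheath, and Lrig1-CreERT2 is driven from a gene of upper follicle cells. After overnight trypsin the epidermal cells were separated from the dermis by scraping, and a nylon mesh held back hair shafts. Total counts were 8299785 to 11239648 in the high-Krt71 libraries and 8076316 to 21216169 in the low-Krt71 libraries. The keratins of interfollicular epidermis were abundant in every library, with Krt5 at 11480 to 18920 CPM and Krt10 at 6681 to 20090 CPM.

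The labels call all of the skin telogen, the resting phase. Transcripts of the inner root sheath and hair shaft, which are made by growing follicles, were present in 8 of these 18 libraries at levels that go against that label. The division was not clean, since KN1 1 and KN1 3, both low-Krt71 libraries, had 16.4 and 15.7 CPM of summed inner root sheath keratins. The rest of the low-Krt71 libraries had 1.54 to 8.20 CPM and the high-Krt71 libraries 84 to 502 CPM. The split is of libraries by RNA and not by histology. In bulk RNA, more growing follicles in the sampled skin and more RNA per follicle cannot be told apart.

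Hair follicles cycle through growth (anagen), regression (catagen) and rest (telogen). In growth, matrix cells at the base of the follicle divide next to the dermal papilla and differentiate into the hair shaft and into the inner root sheath, which moulds the shaft. Each layer makes its own pairs of type I and type II keratins, and trichohyalin and keratin-associated proteins cross-link them. At rest the lower follicle is gone, the club hair is held by the old bulge, and most of these genes are silent. Wnt and hedgehog signals start a new cycle, BMP signals hold it back, and pigment cells make melanin only during growth.

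The 2 marker genes are neighbours of other hair keratins in the type II cluster of chromosome 15 and the type I cluster of chromosome 11. Krt71 lies at chr15:101733949-101743109 and Krt25 at chr11:99315516-99322951, both protein coding and on the minus strand of GRCm38, the build called mm10 in the submitters' processing notes. The 150 bases before the RefSeq start of 4 hair keratin genes (GRCm38.p6, minus strand, written 5′ to 3′ along the gene) are given to show what lies just before genes that were high together. The first pair are the markers, Krt28 is another inner root sheath keratin and Krt31 is a keratin of the hair cortex. Capitals mark TATAAA, searched on the strand of the gene, and CTTTG, the core letters bound by Lef1 and the related TCF factors, searched on both strands and so also shown as CAAAG. The 2 motifs did not overlap. The windows are chr15:101743098-101743247 for Krt71, chr11:99322952-99323101 for Krt25, chr11:99374904-99375053 for Krt28 and chr11:100050552-100050701 for Krt31.
Krt71: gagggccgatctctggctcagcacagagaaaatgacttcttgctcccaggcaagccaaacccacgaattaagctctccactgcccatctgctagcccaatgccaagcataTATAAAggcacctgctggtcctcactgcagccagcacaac
Krt25: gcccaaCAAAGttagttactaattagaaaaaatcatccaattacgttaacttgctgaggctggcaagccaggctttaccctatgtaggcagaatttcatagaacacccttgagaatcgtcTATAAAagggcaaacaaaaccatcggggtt
Krt28: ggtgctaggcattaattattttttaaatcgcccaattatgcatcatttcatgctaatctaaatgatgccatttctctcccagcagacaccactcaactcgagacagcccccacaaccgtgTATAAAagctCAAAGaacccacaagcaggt
Krt31: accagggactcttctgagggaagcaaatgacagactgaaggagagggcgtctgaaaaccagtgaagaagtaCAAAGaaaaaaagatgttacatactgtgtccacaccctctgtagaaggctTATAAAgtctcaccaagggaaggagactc

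TATAAA began 40 bases before the RefSeq start in Krt71, 30 in Krt25 and Krt28, and 29 in Krt31. The gene spans given above are from another annotation, GENCODE, whose Krt71 start lies inside the printed window. The distance in Krt71 thus depends on the annotation. In Krt27, an inner root sheath keratin whose window is not printed, TATAAA began 15 bases before the RefSeq start, which also differs from that of GENCODE. Of the inner root sheath keratins with an entry, 6 of 7 held it (85.7%), against 4.84% of all 32851 promoters of the same length. Of the shaft keratins with an entry, 5 of 9 held it (55.6%). CTTTG was in 3 of those 7, in 4 of those 9 and in 31.5% of all promoters. Of the 48 genes higher in the high-Krt71 libraries that had an entry, 17 held TATAAA (35.4%) and 18 held CTTTG (37.5%). A match is a string of letters and not a known binding site.

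Krt71, a type II keratin of the inner root sheath, was at 39 CPM in KR 3, 123 in KR 4 and 209.6 in KR 5. It was at 134.6 CPM in KR control 6, 204 in LR 2, 130.2 in LR control 2, 195 in KN1 2 and 78.8 in KN1 4. Those are the high-Krt71 libraries, and they came from 5 of the 6 groups. The other libraries were lower. Of them, KN1 1 had 5.94 CPM, KN1 3 had 4.94, LR 1 had 2.67 and LR 3 had 1.64. KR control 4, KR 1, KN1 control 1, LR control 3, LR control 5 and KN1 control 7 had 0.543, 0.495, 0.424, 0.348, 0.271 and 0.183 CPM. The nearest libraries on the 2 sides of the threshold were thus KR 3 at 39 and KN1 1 at 5.94 CPM.

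**Figure D1:**
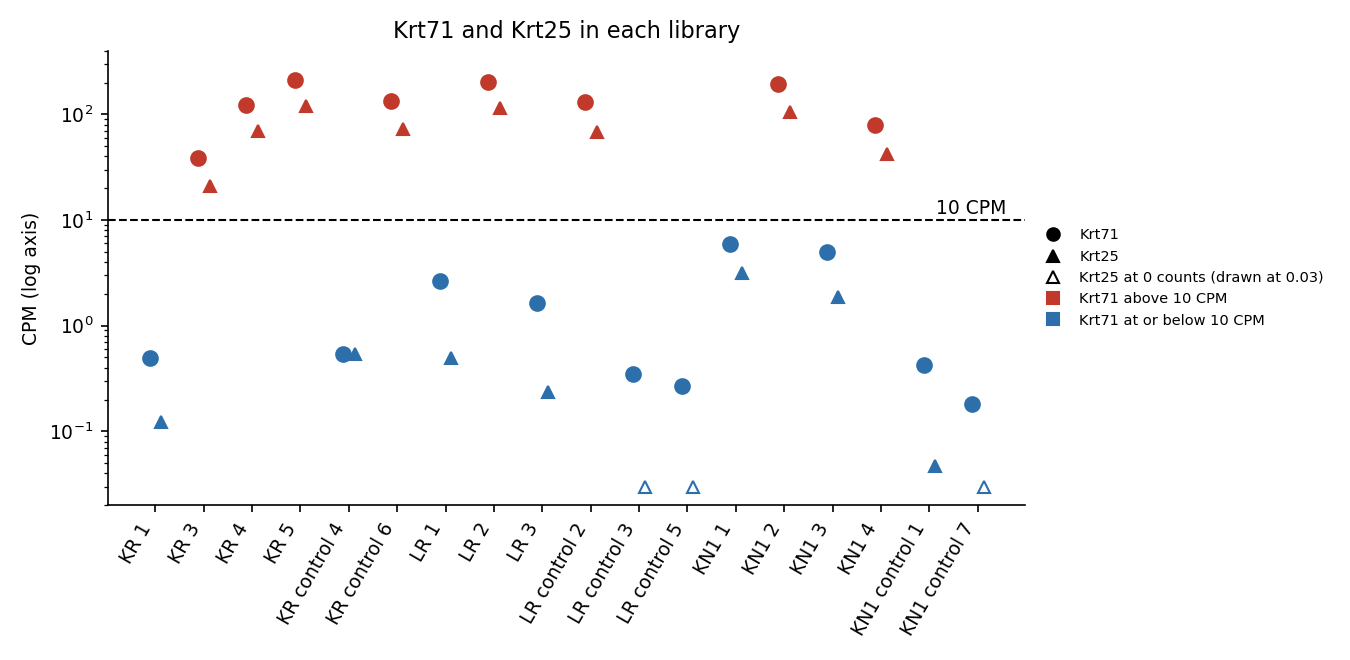
Krt71 (circles) and Krt25 (triangles) in CPM on a log axis for each of the 18 libraries, with the threshold of 10 CPM as a dashed line; open triangles mark libraries with 0 Krt25 counts. The 8 high-Krt71 libraries (red) lie between 39 and 209.6 CPM of Krt71, and the low-Krt71 libraries (blue) at 5.94 CPM or less.

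Krt25, the type I keratin that pairs with Krt71, gave the same 8 libraries at the same threshold. It ran from 20.8 CPM in KR 3 to 121 in KR 5, and from 0 in 3 libraries to 3.15 CPM in KN1 1 among the rest. The ratio of Krt25 to Krt71 was nearly constant in the high-Krt71 libraries, 0.527 to 0.578, while the level of each varied between them. In KN1 1 the ratio was 0.531, inside that range, and in KN1 3 it was 0.375. In LR 1 and LR 3 it was 0.185 and 0.143.

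Hair state was next compared with what the labels give, which the split did not use. High-Krt71 libraries were 6 of 11 mutants and 2 of 7 controls (exact Fisher test, two-sided, p = 0.367, adjusted p = 0.589 over 3 label tests). By group they were 3 of 4 KR and 1 of 2 of its controls, 1 of 3 LR and 1 of 3 of its controls, and 2 of 4 KN1 and 0 of 2 of its controls. The labels also give a cage field with 3 batches. High-Krt71 libraries were 2, 4 and 2 of the 6 libraries of batches 1, 2 and 3 (exact Fisher test, p = 0.589, adjusted p = 0.589). Mean log2 total count was lower by 0.17 in the high-Krt71 libraries (-0.169, exact permutation test, two-sided, p = 0.422, adjusted p = 0.589). Reads of Y-linked genes were present in 4 of the 8 and in 5 of the 10. The threshold mattered for the first of these tests. Above 1 CPM lay 10 of 11 mutants and 2 of 7 controls (exact Fisher test, p = 0.0128, adjusted p = 0.0641 over 5 thresholds), because LR 1, LR 3, KN1 1 and KN1 3 had between 1 and 10 CPM and no control did. The 2 merged controls, KR control 4 and KN1 control 1, were both low-Krt71 libraries and were the deepest.

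Across genes, with the 6 groups as covariate, 67 of 16517 tested genes (0.406%) were higher in the high-Krt71 libraries and 0 (0%) were lower by edgeR's quasi-likelihood test at an adjusted threshold of 0.05. Since the libraries were selected on Krt71, these counts describe which genes went with it, and no p-value is given for any gene of this contrast. At an unadjusted p under 0.05, 483 genes were higher and 243 lower, and DESeq2 called 120 higher and 3 lower. Every high-Krt71 library lay above every low-Krt71 library for 48 genes (0.291%), 43 of them among the 67, and below for 0 genes (0%). KN1 controls, with no high-Krt71 library, do not contribute to the contrast. Of the 67 genes, 32 are on the lists of hair sheath, shaft, keratin-associated and matrix genes and 31 are on no list. The count was 28 in control mice alone and 0 in mutant mice alone, where 432 genes were higher at an unadjusted p under 0.05. Without LR 3 the count was 113. The median log2 difference of the inner root sheath list, Krt71 included, was 5.79 in control mice alone and 4.66 in mutant mice alone. It was 4.92 in all mice, and these medians are a description only. Over all tested genes the median log2 difference, high minus low, was -0.01, and 46.4% of genes were positive.

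**Figure D2:**
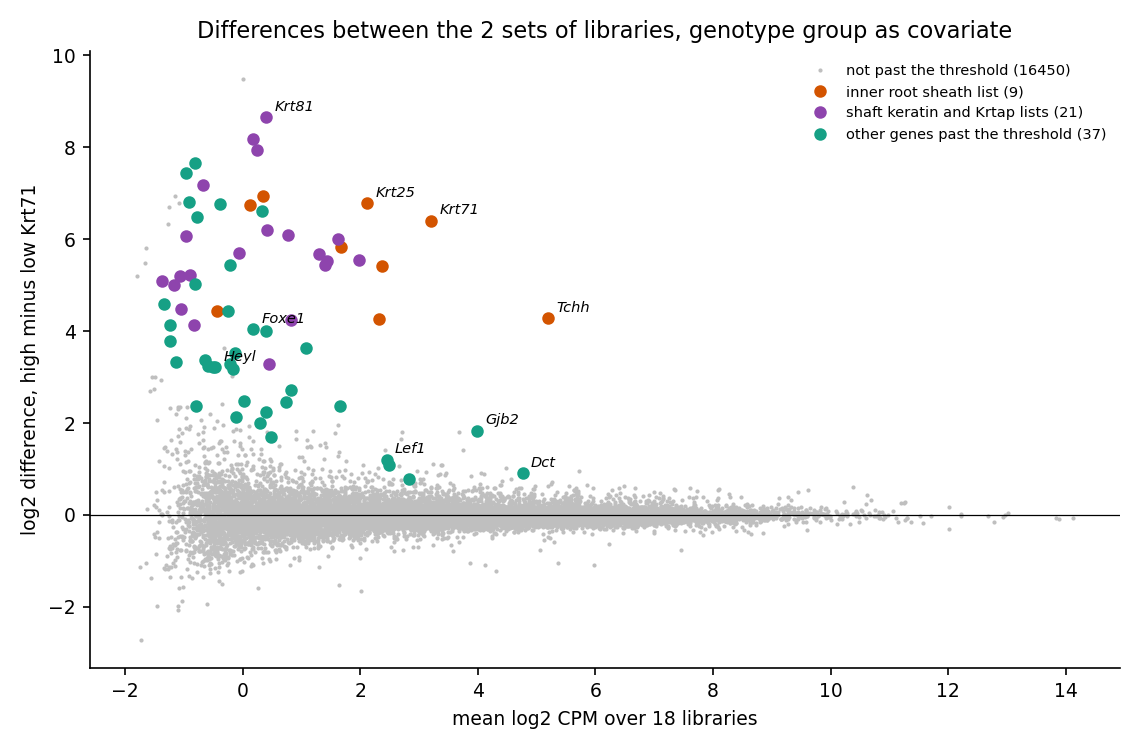
Log2 difference, high-Krt71 minus low-Krt71 libraries with the 6 groups as covariate, against mean log2 CPM over 18 libraries; each point is 1 of 16517 tested genes. The 67 genes past the threshold (coloured: 9 inner root sheath, 21 shaft keratin and keratin-associated, 37 other) lie above 0, and none lies below.

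Genes of the inner root sheath made up the first group. Apart from Krt71, whose place the rule fixed, 8 of 11 tested genes passed the threshold, 10 were positive and the median log2 difference was 4.43. Over all tested genes 0.406% passed and 46.4% were positive. Their products are the type II keratins Krt71, Krt72 and Krt73, the type I keratins Krt25 to Krt28, trichohyalin (Tchh), and Padi3, the enzyme that converts arginines of trichohyalin to citrulline. For the 8 that passed besides Krt71 the sets did not overlap, which held for 0.291% of all tested genes. Tchh (chr3:93442330-93449077) was at 60.8 CPM in KR 3 and 69 in KN1 4, at 135.6 to 474.3 CPM in the other 6 high-Krt71 libraries and at 6.50 to 16.4 CPM in the low-Krt71 libraries (log2 difference 4.28 ± 0.41, SE). Krt71 itself differed by 6.40 ± 0.56 and Krt25 by 6.79 ± 0.60. Padi3 was at 3.14 to 19.2 CPM against 0 to 0.364 CPM (6.94 ± 0.66). It was 1 of 3 genes, of the 12 tested on this list, that reached the filter on low counts only through the high-Krt71 libraries. The filter largely set the direction of those 3.

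Of the members that did not pass, Gata3, a transcription factor of the inner root sheath that interfollicular cells also express, was at 357 to 766.6 CPM and 329.6 to 1017 CPM. Tgm3, a transglutaminase, had a log2 difference of 0.55 ± 0.32. Per kilobase of exon the mean level in the high-Krt71 libraries was 63.7 CPM for Krt71, 38.7 for Krt25, 36.8 for Tchh, 16.2 for Krt73 and 4.50 for Krt72. In the low-Krt71 libraries it was 0.798 CPM per kilobase for Krt71 and 1.85 for Tchh. The 8 inner root sheath keratins together ran from 84 to 502 CPM in the high-Krt71 libraries and from 1.54 to 16.4 CPM in the others.

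Hair shaft keratins followed the same libraries. Of 17 tested genes on that list 14 passed. The filter on low counts asked for about 1.08 CPM in at least 2 libraries, and 14 of the 17 reached it only through the high-Krt71 libraries, so the filter largely set their direction and their count supports nothing. The same held for 3 of the 12 tested inner root sheath genes. Krt35 and Krt85, keratins made early in the shaft, were at 5.44 to 70.9 and 2.72 to 32.2 CPM in the high-Krt71 libraries and at 0.124 to 1.76 and 0 to 0.937 CPM in the others. The cortex keratins Krt31, Krt33a, Krt34, Krt83, Krt86 and Krt87 differed by 4.24 to 6.01 on the log2 scale. Krt81 (chr15:101459061-101463751) had 1327 counts over the high-Krt71 libraries and 3 over the others, a pooled ratio of 661.6 with a 95% counting interval of 226 to 3210. Krt33b had 994 and 2 counts, a ratio of 743.4 (205 to 6150). These keratins are close copies of one another, so reads may have been split between them. Krt32, a cuticle keratin, was at 5.02 to 19.4 CPM and 5.70 to 16.8 CPM. It made up most of the shaft keratin level in the low-Krt71 libraries. Krt84 was at 23.1 CPM in LR control 2 and at 3.20 CPM or less in the other 7 high-Krt71 libraries, and it did not pass.

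The balance between sheath and shaft differed among the high-Krt71 libraries. The summed level of the 16 shaft keratins, divided by that of the 8 inner root sheath keratins, was 0.321 in KN1 4, 0.416 in LR 2 and 0.417 in KR control 6. It was 0.691 in LR control 2, 0.743 in KR 3, 0.851 in KN1 2, 0.937 in KR 5 and 0.954 in KR 4. KN1 4 had more of the sheath keratins than KR 3, 185 against 84 CPM, and less of the shaft keratins, 59.4 against 62.4 CPM. All of these transcripts together were at most 0.0972% of a library's counts.

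Keratin-associated proteins, the small cross-linking proteins of the shaft, were tested for 16 of 32 genes in the table. Of them 7 passed, but 14 of the 16 reached the filter only through the high-Krt71 libraries, which largely set their direction. The median of the tested genes was 5.78 (5.41 with genes absent from the low-Krt71 libraries at their lower bound), 4.87 with no filter and 6.70 with a mean of at least 1 CPM, and is a description only. The summed level of the family was 24.3 to 136 CPM in the high-Krt71 libraries and 1.90 to 17.7 CPM in the others. Krtap11-1 was at 1.41 to 28.8 CPM against 0 to 0.243 CPM, and Krtap8-1 at 0.760 to 29.2 against 0 to 0.123 CPM. The 16 genes that were not tested had too few counts, and genes of this family resemble one another closely.

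**Figure D3:**
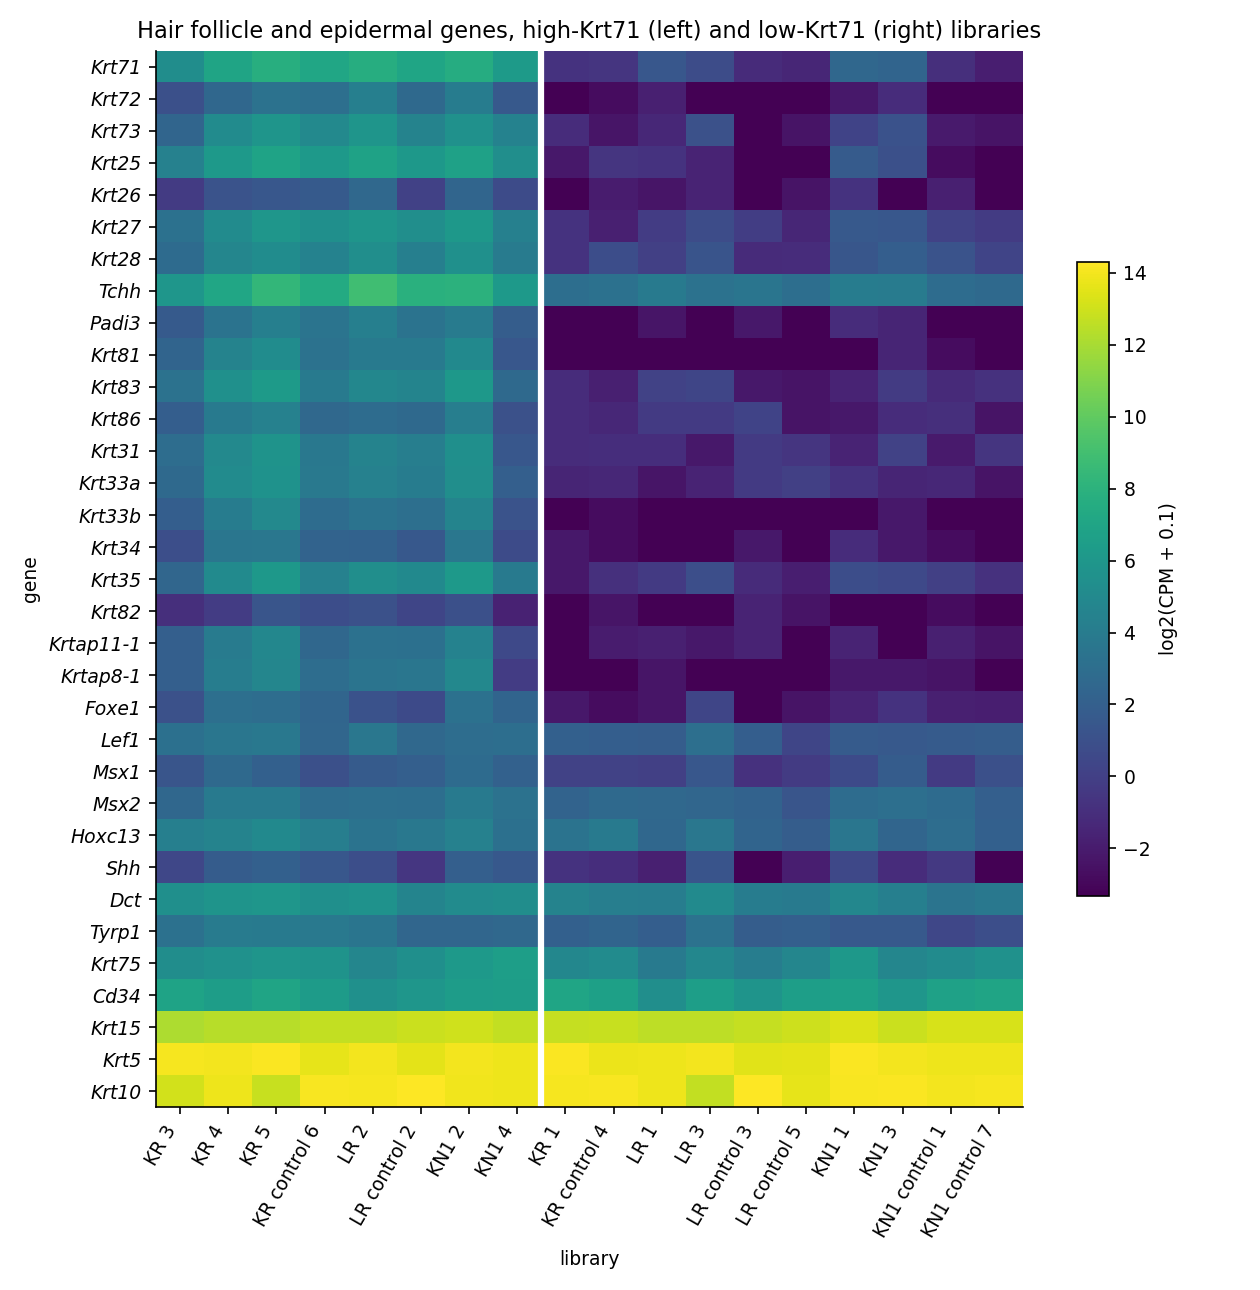
Level of 33 hair follicle and epidermal genes as log2(CPM + 0.1), genes in rows, with the 8 high-Krt71 libraries left of the white line and the 10 low-Krt71 libraries right of it. Inner root sheath and shaft genes are high on the left, while Cd34, Krt15, Krt5 and Krt10 have like levels on both sides.

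Regulators of the hair matrix form the next group. Of 20 tested genes 2 passed, 15 were positive and the median was 0.24. Foxe1, a forkhead factor of the follicle, was at 1.45 CPM in LR control 2, 1.99 in KR 3, 2.05 in LR 2, 5.10 in KN1 4, 5.16 in KR control 6, 7.90 in KR 5, 8.37 in KR 4 and 9.36 in KN1 2. In the low-Krt71 libraries it was at 1.17 CPM in LR 3 and at 0.494 CPM or less in the other 9 (4.04 ± 0.57). Of the 20 genes Foxe1 was the 1 that reached the filter on low counts only through the high-Krt71 libraries, which largely set its direction. Lef1, the nuclear partner of beta-catenin in hair precursor cells, had a log2 difference of 1.20 ± 0.22, with 5.52 to 12.9 CPM against 1.18 to 8.66 CPM. The highest low-Krt71 library was again LR 3, and the next was KR 1 at 4.09 CPM. Msx1, Dlx2, Hoxc13 and Msx2, homeobox genes of the matrix, had 1.48 ± 0.35, 1.51 ± 0.43, 0.86 ± 0.26 and 0.79 ± 0.23 and did not pass. Foxn1, the nude gene, which is also expressed in the epidermis, had -0.04 ± 0.21.

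Among signals that drive the hair cycle few members passed. The hedgehog list had 0 of 12 past the threshold, 9 positive and a median of 0.14. Its ligand Shh, made by the hair matrix, was at 0.602 to 4.17 CPM in the high-Krt71 libraries and at 0 to 2.34 CPM in the others (1.93 ± 0.55). The target Gli1 had 0.46 ± 0.27. Of 32 Wnt pathway genes Lef1 was the 1 that passed, 17 were positive and the median was 0.03. Sfrp1, a secreted Wnt antagonist, had 0.58 ± 0.21 and Notum, another, 1.01 ± 0.43. Of 30 BMP, FGF and TGF-beta genes 0 passed and 15 were positive. Inhba, a subunit of activin, had 1.06 ± 0.40.

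In the Notch list, 1 of 14 tested genes passed and 8 were positive. That gene is Heyl (chr4:123233556-123249875), a hairy-related repressor and Notch target, singled out here after its values were seen. It was at 0.941 CPM in KR 3, 1.08 in LR control 2, 1.33 in LR 2, 1.63 in KN1 4, 2.05 in KR control 6, 2.61 in KR 4, 2.93 in KN1 2 and 3.74 in KR 5. In the low-Krt71 libraries it was at 0 to 0.607 CPM, and the sets did not overlap (3.22 ± 0.50). Of the 14 tested genes Heyl was the 1 that reached the filter on low counts only through the high-Krt71 libraries, which largely set its direction. Rbpj and Notch1, the deleted genes, had -0.04 ± 0.11 and 0.07 ± 0.13, and Hes1 had 0.05 ± 0.15. Heyl was high in libraries with either deletion and in 2 controls.

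Pigment genes are those of melanocytes. Of 17 tested 2 passed, 16 were positive and the median was 0.88, with 4 of the 17 past the filter only through the high-Krt71 libraries. The median was 0.34 with a mean of at least 1 CPM, 0.31 in control mice only and 0.36 in mutant mice only. Dct, an enzyme of melanin synthesis, was at 24.8 CPM in LR control 2 and at 35.9 to 60.3 CPM in the other 7 high-Krt71 libraries. It was at 34.2 CPM in LR 3, 28 in KN1 1 and 10.8 to 23.8 CPM in the other 8 (0.91 ± 0.14). Tyrp1, its relative, was at 5.64 to 15.9 CPM against 1.27 to 9.95 CPM (1.08 ± 0.22), and it passed in 17 of 36 alternatives, against 30 of 36 for Dct. Tyr, the first enzyme of the pathway, had 1.31 ± 0.53 and did not pass, nor did Trpm1 with 1.48 ± 0.37. Pmel, the melanosome matrix protein, had 0.21 ± 0.14. The summed list was at 144 to 235.5 CPM and 103 to 192.6 CPM. In LR controls the mean of the list was lower in the high-Krt71 library by 0.06 (-0.057 log2), and in the other 4 groups with both sets it was higher by 0.61 to 1.19.

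Genes outside these lists went with the hair genes too. Prr9, a proline-rich protein gene beside the cornified envelope genes, was at 1.46 to 19.2 CPM against 0 to 0.741 CPM (6.61 ± 0.74). Gprc5d, a receptor gene of hair-forming cells, had 377 counts against 3, a pooled ratio of 188 (95% counting interval 63.8 to 916). Crym, which encodes a thyroid hormone binding protein, was at 1.15 to 11.3 against 0 to 0.820 CPM (3.99 ± 0.49). Vsig8 had 3.63 ± 0.53, Cmah 2.71 ± 0.50, Gdf10, a BMP-related ligand gene, 2.37 ± 0.32 and Sytl2 0.78 ± 0.15. Gjb2, the gap junction protein connexin 26, was at 19.8 to 64.2 CPM against 5.24 to 19.1 CPM (1.83 ± 0.36), with LR 3 the highest of the low-Krt71 libraries. Of 36 alternatives, Gjb2 passed in 13, Sytl2 in 21 and Cmah in 23, against 31 for Crym and 32 for Gdf10. Tchhl1, a relative of trichohyalin, had 188 counts over the high-Krt71 libraries and 0 over the others, at least 93.7-fold higher with a floor of 3 counts over the set. These intervals cover counting error only. Prr9, Gprc5d, Crym and Tchhl1 reached the filter on low counts only through the high-Krt71 libraries, so the filter largely set their direction.

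Genes of resting and upper follicle cells did not separate the sets. Of 22 bulge and hair germ genes 0 passed and 10 were positive, with a median of -0.01. Krt15, a keratin of bulge stem cells and of basal epidermis, was at 4467 to 8446 CPM against 5939 to 10530 CPM, and Cd34 at 46.9 to 123.2 CPM against 41.6 to 132.5 CPM. Tnc, an extracellular matrix gene, was at 20.2 to 70.4 CPM against 7.78 to 36.5 CPM (1.01 ± 0.30). Krt75, the keratin of the companion layer, which surrounds the inner root sheath, was at 27.4 to 92 against 14.9 to 67.2 CPM (0.71 ± 0.19). Of 11 upper follicle genes 0 passed and 9 were positive (median 0.18). Of 15 basal epidermal genes 0 passed and 3 were positive (median -0.08), and of 35 suprabasal genes Tchhl1 was the 1 that passed (median 0.02).

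Cell cycle genes were positive in 41 of 42 cases, with a median of 0.33, and 0 passed. Mki67, the proliferation marker, was at 60.2 to 152.8 CPM in the high-Krt71 libraries and at 36.8 to 171.6 CPM in the others. Ube2c and Ccnb1, of mitosis, had 0.61 ± 0.29 and 0.54 ± 0.23. The mean of the list was higher in the high-Krt71 libraries of KR, KR controls and KN1 by 0.37 to 0.74, and of LR controls by 0.06. In LR it was lower by 0.29 (-0.294 log2), where LR 3 had 4.84 and LR 2 had 4.34 mean log2 CPM.

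**Figure D4:**
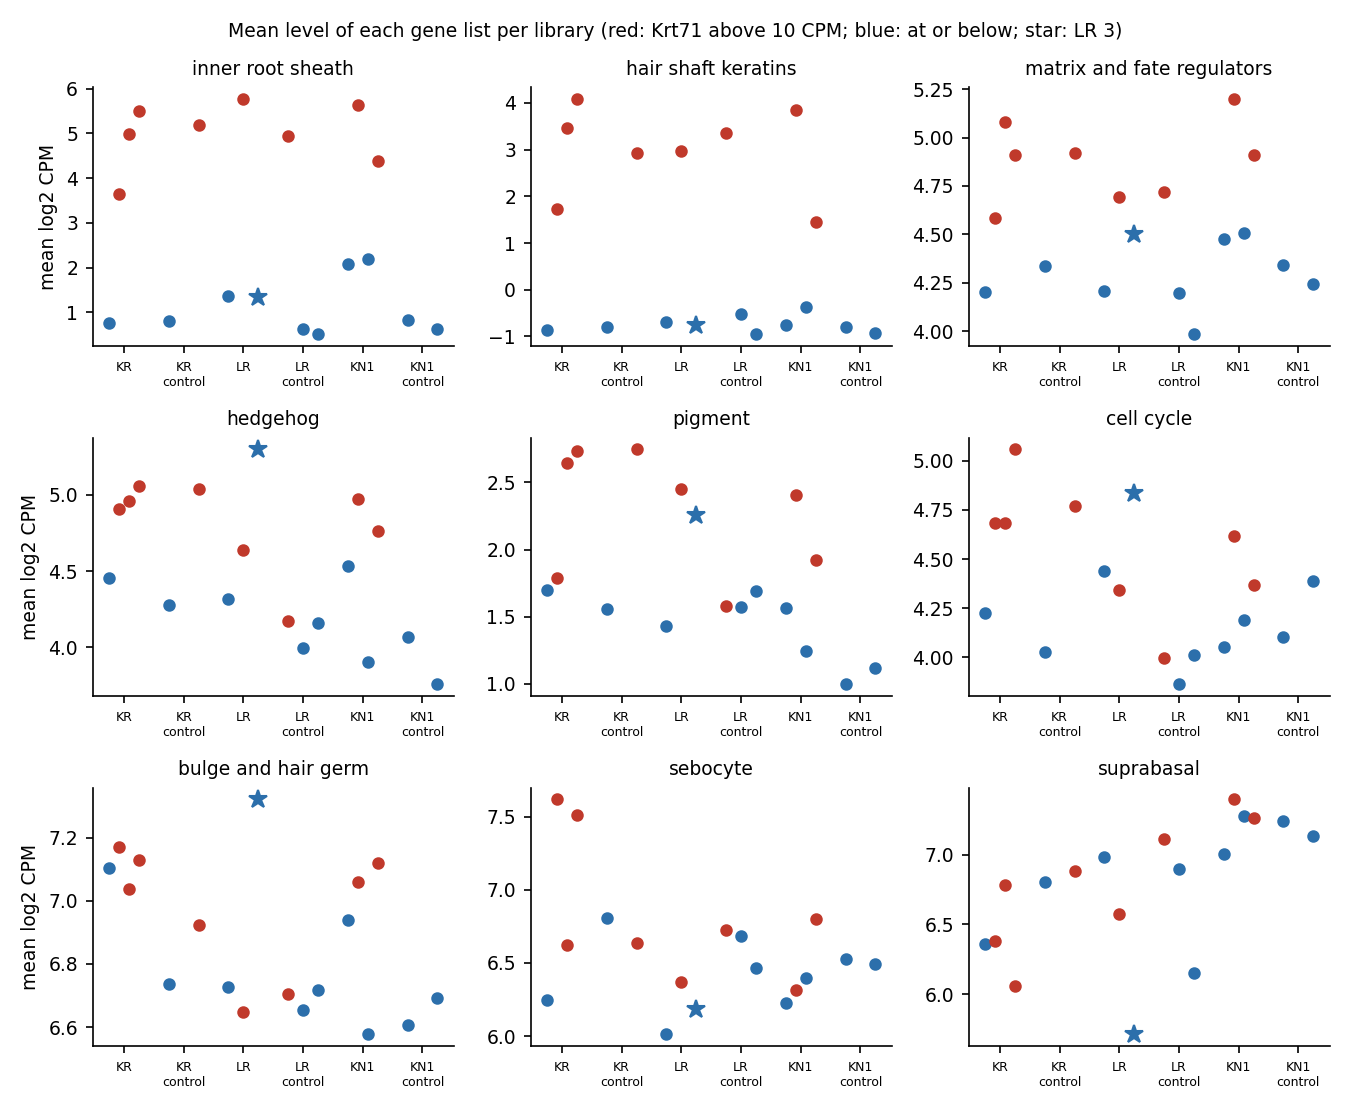
Mean log2 CPM of 9 gene lists (vertical axis of each panel) in each library by group; red points are the 8 high-Krt71 libraries, blue points the 10 low-Krt71 libraries and the star LR 3. The inner root sheath and shaft keratin panels separate the colours, and in the hedgehog and bulge panels LR 3 lies above all other libraries.

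LR 3 stood apart from the other low-Krt71 libraries. Its Krt71 was at 1.64 CPM and its shaft keratins at 12.3 CPM, inside the range of the low-Krt71 libraries. Its Gli1 was at 83.6 CPM, against at most 46 CPM in all other libraries. The mean log2 CPM of its hedgehog list was 5.30 and of its bulge and hair germ list 7.32, the highest of all 18 libraries. Its suprabasal list was the lowest, at 5.71. Without LR 3, 113 genes were higher, 66 of them shared with the 67, and 47 were added. Of the 47, only 9 are on any of the gene lists used here, and the rest are on none. Those on lists included Shh (2.41), Msx1 (1.65), Dlx2 (1.83), Vcan (4.27), Tnc (1.15) and Krt75 (0.79, log2 differences without LR 3). They are named here after their values were seen, and 113 was the highest count on leaving out 1 library.

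Lists of other cell types gave 0 genes past the threshold, with overlapping sums. Of 13 tested dermal papilla genes 11 were positive (median 0.77, or 0.37 with a mean of at least 1 CPM), and 5 passed the filter only through the high-Krt71 libraries. Of the whole list, the sum was 52.1 to 78.4 CPM against 36.6 to 65.5 CPM. Vcan, a proteoglycan of the active papilla, was at 0.651 to 7.48 CPM against 0 to 1.05 CPM (3.64 ± 0.79). Of 12 fibroblast genes 10 were positive (median 0.63), with sums of 376 to 1111 against 259 to 1109 CPM, and Dcn and Col3a1 had 1.74 ± 0.58 and 1.56 ± 0.54. Of 9 adipocyte genes 2 were tested, and Fabp4 had 1.85 ± 0.66. Langerhans cell and MHC class II genes were negative in 12 of 13 cases (median -0.33, -0.56 in control mice only and -0.13 without merged or second-named controls), with sums of 930.4 to 2438 against 858.5 to 2513 CPM. Cd74 had -0.37 ± 0.16 and H2-Eb1 -0.36 ± 0.14. Whether these cell types have a part in the differences was not tested.

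Sebocyte genes were positive in 27 of 30 cases (median 0.38), with 0 past the threshold. The median was 0.01 with the threshold at 100 CPM and -0.01 in control mice only, and 2 libraries stood above the rest. The mean of the list was 7.62 log2 CPM in KR 3 and 7.51 in KR 5, against 6.01 to 6.81 in the other 16 libraries. Elovl6, a fatty acid elongase, was at 2662 and 2459 CPM in these 2 libraries and at 482 to 1031 CPM in the others. Within KR the list differed by 1.01 between the sets, and in the other 4 groups with both sets by -0.18 to 0.27.

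Each mutant was compared with its controls with hair state left out of and then added to the fit (edgeR's quasi-likelihood test, adjusted over 16517 genes). In KR 264 genes (1.6%) passed without hair state and 200 (1.21%) with it, 188 in both, which is 71.2% of the first and 94% of the second. In LR the counts were 185 (1.12%) and 187 (1.13%), 168 in both, 90.8% and 89.8%. In KN1 they were 325 (1.97%) and 145 (0.878%), 142 in both, 43.7% and 97.9%. The 183 genes that passed in KN1 only without hair state moved little in size, by a median of 0.03 on the log2 scale. The KN1 controls were both low-Krt71 libraries. In KN1 the median of the inner root sheath genes went from 4.16 to 0.73 and that of the shaft keratins from 4.83 to 0.44, with 0 genes past the threshold in both fits. Heyl in KN1 went from 4.23 (adjusted p = 0.231) to 2.05 (adjusted p = 0.379), and Notch1 from -0.91 (adjusted p = 0.0251) to -0.95 (adjusted p = 0.0457).

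Some genes changed sides of the threshold in these fits. In KR the MHC class II gene H2-Eb1 went from 1.06 (adjusted p = 0.056) to 1.21 (adjusted p = 0.0299), and Hsd11b2, of steroid metabolism, from -2.15 (adjusted p = 0.25) to -2.57 (adjusted p = 0.0496). In KN1 the cytokine gene Tslp went from 2.19 (adjusted p = 0.0378) to 2.23 (adjusted p = 0.063). These adjusted p-values are from edgeR. The counts with hair state moved with single libraries. KR had 4 genes without KR control 6, 7 without KR control 4, 47 without KR 1, 22 without KR 3, 24 without KR 5 and 460 without KR 4. LR had 108, 55 and 112 without LR controls 2, 3 and 5, and 118, 371 and 62 without LR 1, LR 2 and LR 3. KN1 had 2 without KN1 control 7, 181 without KN1 control 1, and 48, 53, 61 and 43 without KN1 1, 2, 3 and 4.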

How the data were processed

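Per the labels, poly(A) RNA of dorsal skin epidermal cells from 18 mice was sequenced. The authors deposited a table of whole-number counts per gene, 1 column a mouse, and 0 columns had no sample. The submitters' processing notes name STAR, HTSeq, DESeq2 and mm10; versions, strand setting and which tool made the table are not given in the sources used here. In KR control 4 and KN1 control 1 the labels describe 1 mouse sequenced on 2 occasions, in 1 column.

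Levels are CPM of the column total. Libraries were split at Krt71 of 10 CPM and compared with edgeR 4.0.16 (limma 3.58.1, R 4.3.3; TMM factors, low-count filter, quasi-likelihood test) with the 6 groups as covariate, over 16517 of 21011 genes, with Benjamini-Hochberg adjustment at 0.05. The common biological coefficient of variation was 0.216. List levels are means of log2 CPM (TMM, prior count 2). The fitting code was checked on simulated data. Alternatives were other thresholds, DESeq2 1.42.0, other scaling, filters and covariates, subsets, a replicate block and leaving out each library. Genes named were Krt71, Krt25, Rbpj and Notch1, the largest differences past the threshold on and off the hair lists, up to 5 members of each list, and genes that changed sides in the mutant fits; others are marked where named. Members and lists were chosen with earlier results of these data known. Of the table's symbols, 15418 are in GENCODE M21, the source of gene coordinates and exon lengths. Promoters are from RefSeq.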

Additional observations from a re-analysis of the deposited data

Results flagged for a closer look

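The mean log2 CPM of the macrophage, neutrophil and mast cell list was 1.683 in KN1 2, a high-Krt71 library, and 1.372 to 1.398 in the other 3 KN1 libraries. The gap to the nearest library was 0.916 of the range of the group, above Dixon's 95% critical value of 0.829 for 4 samples. It was the 1 such case among 64 groups of values looked at. Chance gives about 1 in 20 groups, so 1 case in 64 is no more than chance would give.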

How the results depend on the processing

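The count of higher genes was 67. It was 0 with the threshold at 1 CPM (474 higher and 288 lower at an unadjusted p under 0.05, edgeR), 37 at 5 CPM, 120 with DESeq2, 28 in control mice only, 0 in mutant mice only (432 and 439 unadjusted), 31 without merged or second-named controls, and 50 to 113 leaving out 1 library at a time. Without the libraries of 1 to 10 CPM, a choice made after seeing the data, it was 26, of which 19 were shared. The median log2 difference of the inner root sheath list, Krt71 included, was 5.76 at 1 CPM and 4.66 in mutant mice only. The count of lower genes was 0, and was 2 at 100 CPM, 3 with DESeq2, 1 with sex added to the groups, 1 in control mice only, 1 without merged or second-named controls and 0 to 1 leaving out 1 library. Mutants exceeded controls in the share of high-Krt71 libraries by 26 percentage points, and by 62.3 at 1 CPM. The depth difference was 0.0676 without the 2 merged controls, the other direction.

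With hair state, KR gave 944 genes with DESeq2, 0 in low-Krt71 libraries only (711 at an unadjusted p under 0.05, edgeR) and 4 to 460 leaving out 1 library. LR gave 541, 40 and 55 to 371. KN1 gave 604, 0 (1223 unadjusted) and 2 to 181, and 325 without hair state. The causes were not tested.

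The labels' title numbers were used as a replicate block. Same-numbered mutants and controls correlated at -0.278 (KR 4), 0.0656 (LR 2), -0.0842 (LR 3) and 0.418 (KN1 1). These values do not show whether a shared number marks paired mice. With the replicate block (5 residual degrees of freedom) 28 genes were higher, 0 of them among the 67, and KR, LR and KN1 gave 1, 119 and 1. There the sign turned for Fam198b (-0.37), Hsd11b2 (-0.18), Krtap14 (-0.89), Krtap15 (-0.91), Krtap3-1 (-0.32), Krtap9-3 (-2.0) and Tubb3 (-0.072), and the list medians were 2.84 for the inner root sheath, 1.93 for shaft keratins, 1.00 for keratin-associated proteins, -0.13 for pigment and -0.02 for the dermal papilla.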
